A study of Mus musculus with 7 samples.

Results

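Chemokines and their receptors were taken from the transcriptomes of 7 whole colon tumors by gene name. The members are the protein-coding genes whose symbols begin with Ccl or Cxcl and a number, or are Cx3cl1 or Xcl1, for the ligands, and whose symbols are Ccr, Cxcr, Cx3cr1, Xcr1 or Ackr with its number for the receptors. The rule found 59 of the 43346 genes in the count table, 37 ligands and 22 receptors, and it used no measured value. Of the 59, 48 had enough counts to be tested (31 ligands and 17 receptors). The other 11 did not: Ccl12, Ccl19, Ccl21b, Ccl26, Ccl27b, Cxcl15, Ccr3, Ccr4, Ccr6, Ccr8 and Cxcr1.

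The study asked how heterozygous loss of Dnmt3a in blood cells, a model of clonal hematopoiesis (CH), alters colitis-associated cancer (CAC). Bone marrow (BM) from Dnmt3a(+/-) donors (4 tumors) or Dnmt3a(+/+) donors (3 tumors) was transplanted into irradiated wild-type recipients, given in the labels as C57BL6/J and 8 weeks old and in the study's methods as a congenic line. All recipients then received 1 dose of 10 mg/kg azoxymethane (AOM, a colon carcinogen), and then dextran sulfate sodium (DSS), which injures the colon lining, at 3% in 3 cycles. Donors of both groups carried Mx1-Cre and had been given poly(I:C), which switches on that interferon-responsive Cre, and only the Dnmt3a(+/-) donors carried a floxed allele. Mx1-Cre is not restricted to blood cells, but BM was all that was transplanted, so the epithelium and most stroma of every tumor came from the wild-type recipient. The tumors came from 2 transplantation experiments, BMT18 (tumors 1 and 2 of each group) and BMT8 (Dnmt3a(+/+) BM tumor 3 and Dnmt3a(+/-) BM tumors 3 and 4). The sample names of Dnmt3a(+/-) BM tumors 2 to 4 carry a suffix that no other tumor has, and the labels do not explain it. Levels are counts per 1000000 (CPM) on TMM-scaled library sizes, and log2 fold changes are Dnmt3a(+/-) BM minus Dnmt3a(+/+) BM.

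Chemokines are small secreted or membrane-tethered proteins that direct leukocyte migration along concentration gradients. They bind G protein-coupled receptors that signal mainly through Gi proteins, while atypical receptors (Ackr) take up or store ligands without that signaling. In the inflamed colon, epithelium, stroma and leukocytes all make them: the CXC ligands with an ELR motif attract neutrophils through Cxcr2, interferon-inducible CXC ligands attract T cells through Cxcr3, and Ccl2 and its relatives attract monocytes through Ccr2.

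Total counts ranged from 38472738 to 64314999 per tumor, and no pair of tumors was a duplicate. Dnmt3a itself was at 24.3, 23.1 and 20.2 CPM in the Dnmt3a(+/+) BM tumors and at 27.7, 43.0, 28.3 and 22.0 CPM in the Dnmt3a(+/-) BM tumors, a gene total over donor and recipient cells that cannot check the labels. Dnmt3a(+/-) BM tumor 2 stood apart. It held the highest summed CPM of the 7 for the marker lists of leukocytes (286, against 66.1 to 161 in the others, with 11 of 12 genes highest there), fibroblasts (1352, against 251 to 704), endothelium (184, against 22.8 to 99.0) and macrophages (385, against 161 to 241). The epithelial list was lowest there, at 10457 CPM against 13757 to 34188. Depth did not set it apart, at 40732271 counts. Because it moves many members, the plot of log2 fold changes by role also leaves it out. In whole tumors, fewer cells of a type and less RNA per cell cannot be told apart, and p-values measure the spread between these tumors.

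Levels were divided by the length of all annotated exons of a gene together, not of the transcript expressed, so genes are compared only roughly. On this scale the ELR ligand Cxcl5 stood far above all other members, at a mean of 177 CPM per kilobase over the 7 tumors. It ranged from 107 to 299, above the 15.6 to 63.9 of the next member, Ccl6, a myeloid ligand of Ccr1 with a mean of 40.5. Means below these were Ccl21a at 29.0, Cxcl16 at 25.1, Cx3cl1 at 16.2 and Ccl28 at 12.3 CPM per kilobase. Among receptors the highest mean was that of the atypical receptor Ackr3, a scavenger of Cxcl12, at 5.35 CPM per kilobase, followed by Cxcr4 at 2.86, Ccr1 at 2.61 and Cxcr2 at 1.59. Below Cxcl5 the order of means is not one of separate levels, since the ranges over tumors of neighboring tested ligands overlapped, except between Cxcl12 and Ccl25, and those of neighboring receptors all did. Ccl28, for example, ran from 2.45 to 31.9 CPM per kilobase.

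**Figure D1:**
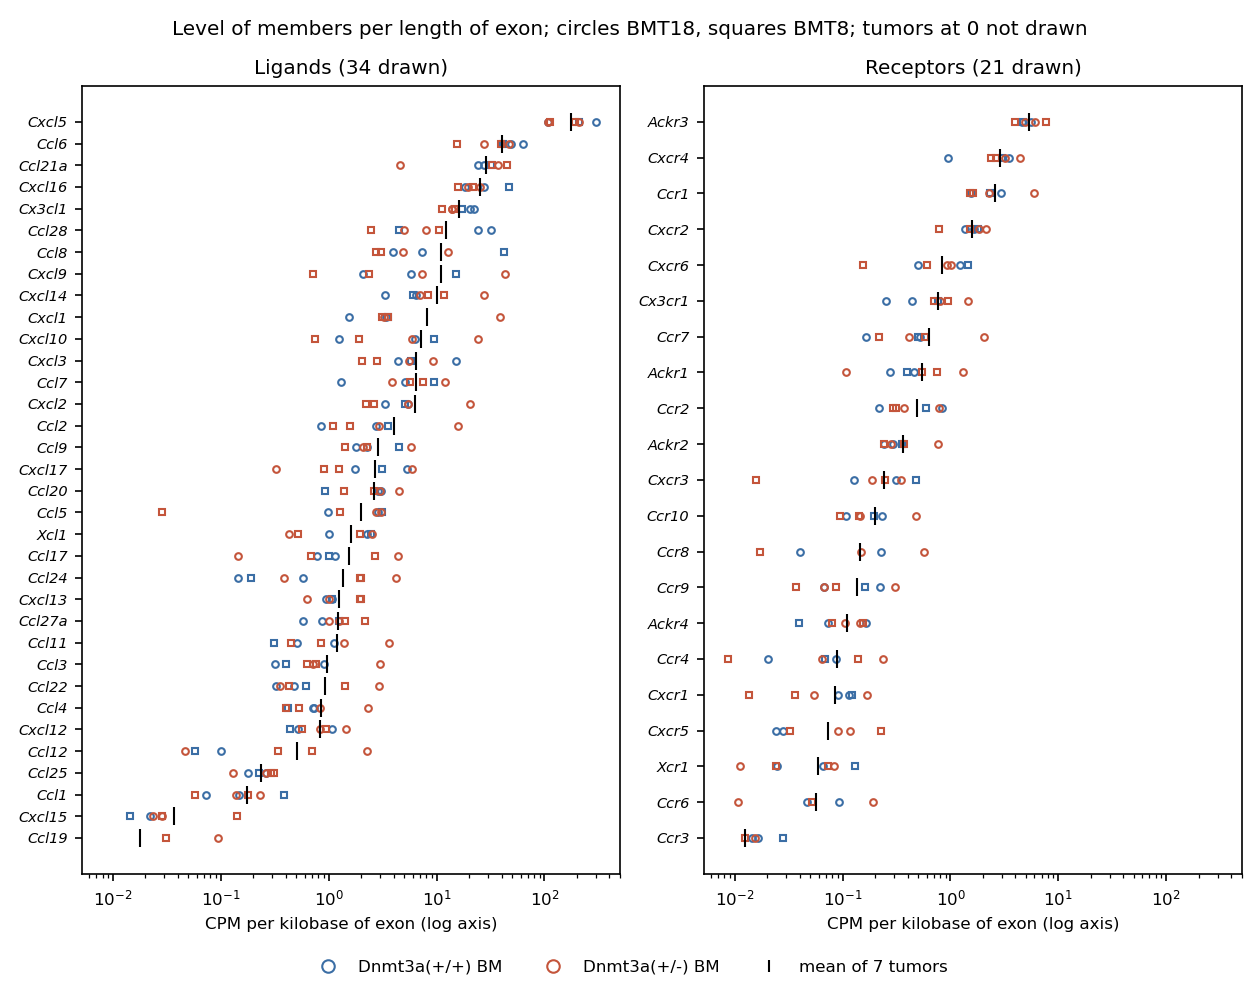
Level of members with any counts, in CPM per kilobase of exon on a log axis, with 1 symbol per tumor (blue, Dnmt3a(+/+) BM; red, Dnmt3a(+/-) BM; circles, BMT18; squares, BMT8) and a bar at the mean of 7 tumors. Cxcl5 lies at the top of the ligands with a mean of 177, and Ackr3 at the top of the receptors with a mean of 5.35.

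Few members separated the groups, and none passed the adjusted test. After Benjamini-Hochberg adjustment, the quasi-likelihood test of edgeR called 0 of the 48 members, as it called 0 of 15810 genes (0%). At an unadjusted p under 0.05 it listed 5 of 48 members, where 11% of all tested genes were listed. Higher with Dnmt3a(+/-) BM were Ccl24, Cxcl14 and Cxcr5 (3 of 48, against 5.83% of all genes), and lower were Cx3cl1 and Ccl28 (2 of 48, against 5.2%). With library size alone in place of TMM, where all genes had a median of 0.21, the split was 5 higher and 0 lower (all genes, 1687 higher and 288 lower, in place of 922 and 822). DESeq2 called Ccl24, 1 of 49 members against 1.87% of the genes it tested. It lost that call without any 1 of 5 tumors (Dnmt3a(+/+) BM tumor 1 or 3, or Dnmt3a(+/-) BM tumor 2, 3 or 4), and without Dnmt3a(+/-) BM tumor 2 it called 0 of 51 members, against 0.987% of genes. Groups did not overlap for Cxcl14 and Cxcr5 (2 of 48 higher, against 6.12% of all genes) and for Cx3cl1 (1 of 48 lower, against 6.32%). None of these shares of members was far above that of all genes.

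Cx3cl1, or fractalkine, is tethered to epithelial and endothelial membranes and binds Cx3cr1 on monocytes, macrophages and some lymphocytes. Its gene is on chromosome 8 (GRCm38, 94772009 to 94782427). The level was 80.7, 86.6 and 67.2 CPM in Dnmt3a(+/+) BM tumors 1 to 3 and 54.7, 54.9, 58.6 and 43.8 CPM in Dnmt3a(+/-) BM tumors 1 to 4. Every Dnmt3a(+/-) BM tumor was below every Dnmt3a(+/+) BM tumor, and hence also within BMT18 and within BMT8. The means were 53.0 ± 6.40 CPM (SD, n = 4) and 78.1 ± 9.95 CPM (SD, n = 3), a log2 fold change of -0.56 (standard error, SE, 0.15; unadjusted p = 0.00726, adjusted p = 0.361 from edgeR). An exact permutation test gave a two-sided p of 0.0286, the smallest that 35 splits allow. Groups without overlap are already the most extreme split in their direction, so this restates the separation and is no further support. For the other listed members the same test gave 0.0571 (Cxcl14 and Cxcr5), 0.0857 (Ccl24) and 0.229 (Ccl28). The log2 fold change was -0.55 without Dnmt3a(+/-) BM tumor 2 and -0.35 with library size alone (unadjusted p = 0.146 from edgeR). Of the markers of both cell types that make it, 11 of 12 epithelial ones had a log2 fold change below 0. With library size alone, 8 of 12 did. With TMM, at an unadjusted p under 0.05, Cldn3 was lower and Cdx2 higher, against 5.2% and 5.83% of all genes. The epithelial list had summed levels of 10457 to 21865 CPM against 16909 to 34188. All 12 endothelial markers had a log2 fold change above 0 (8 higher at an unadjusted p under 0.05, against 5.83% of all genes). Their summed levels were 44.2 to 184 CPM against 22.8 to 46.2, and no marker of either list was at 0. Their part in the difference was not tested.

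Its receptor Cx3cr1 was at 1.99, 1.14 and 3.43 CPM with Dnmt3a(+/+) BM and at 3.59, 6.52, 4.27 and 3.16 CPM with Dnmt3a(+/-) BM. The tumors with Dnmt3a(+/-) BM were mostly higher, with an overlap at Dnmt3a(+/+) BM tumor 3, which lay above Dnmt3a(+/-) BM tumor 4. The log2 fold change was 1.01 (SE 0.47, unadjusted p = 0.0635, adjusted p = 0.48 from edgeR), so the ligand and its receptor differed in opposite directions, the receptor within the spread between tumors. Across the 7 tumors their log2 CPM had a Pearson r of -0.718 (exact permutation p = 0.0659, adjusted p = 0.285). Without the 2 tumors farthest from the median of Cx3cl1 it was 0.143, and within BMT18 and BMT8 it was -0.925 and 0.449, so the relation rested on those tumors.

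Ccl28, an epithelial ligand that draws IgA-secreting plasma cells through Ccr10, was at 117, 154 and 21.7 CPM with Dnmt3a(+/+) BM and at 38.3, 24.1, 51.2 and 11.9 CPM with Dnmt3a(+/-) BM. Dnmt3a(+/+) BM tumors 1 and 2 were high, and tumor 3 of that group lay among the Dnmt3a(+/-) BM tumors. Its log2 fold change was -1.64 (SE 0.67, unadjusted p = 0.0422, adjusted p = 0.435 from edgeR). The 2 high tumors are both from BMT18, and in BMT8 the Dnmt3a(+/+) BM tumor lay between both Dnmt3a(+/-) BM tumors. With the experiment as a term the value was -1.21 (unadjusted p = 0.165 from edgeR). Its receptor Ccr10 was at 0.16 to 0.83 CPM in all tumors.

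Ccl24 (eotaxin 2) attracts eosinophils through Ccr3 and is made by macrophages and epithelium. Its gene is on chromosome 5 (GRCm38, 135569937 to 135573049), beside Ccl26, which had 0 counts. The level was 0.19, 0.75 and 0.24 CPM with Dnmt3a(+/+) BM and 0.50, 5.48, 2.52 and 2.60 CPM with Dnmt3a(+/-) BM. These were 7, 48 and 8 counts against 20, 269, 124 and 96 counts. With so few in Dnmt3a(+/+) BM tumors 1 and 3, the gene passed the low-count filter mainly through the Dnmt3a(+/-) BM tumors. Dnmt3a(+/-) BM tumors 2 to 4 were above all others, and tumor 1 overlapped the other group. The tumors above all others are also those with the suffix in their sample names, and its part was not tested. The log2 fold change was 2.78 (SE 0.88, unadjusted p = 0.0141, adjusted p = 0.391 from edgeR and 0.0277 from DESeq2), 2.25 without Dnmt3a(+/-) BM tumor 2 and 3.66 without Dnmt3a(+/+) BM tumor 2. Ccr3, its receptor, had 0 to 3 counts per tumor, too few to test. The related eotaxin Ccl11 differed by 1.30 on the log2 scale (SE 0.80), and 0.49 without Dnmt3a(+/-) BM tumor 2.

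Cxcl14 is a ligand of fibroblasts and epithelium without a settled receptor. It was at 11.8, 6.09 and 11.1 CPM with Dnmt3a(+/+) BM and at 12.8, 50.7, 21.2 and 15.2 CPM with Dnmt3a(+/-) BM. All 4 Dnmt3a(+/-) BM tumors were above all 3 others, with tumor 1 only just above. The log2 fold change was 1.37 (SE 0.53, unadjusted p = 0.0327, adjusted p = 0.422 from edgeR). It was 0.79 without Dnmt3a(+/-) BM tumor 2, with an unadjusted p of 0.0546 from edgeR, which ends its place in the list. Of the fibroblast list, 11 of 11 tested genes had a log2 fold change above 0. Of them 2, Pdgfra and Vim, were higher at an unadjusted p under 0.05 in edgeR, against 5.83% of all genes. The list had a median of 1.00, and 0.23 without Dnmt3a(+/-) BM tumor 2. Its 12 genes summed to 428 to 1352 CPM against 251 to 464. Without Vim, its most abundant gene, which other cell types also express, the sums were 269, 1118, 271 and 388 CPM against 294, 188 and 326, and Dnmt3a(+/-) BM tumors 1 and 3 lay within the other group. None of its genes was at 0 in any tumor, and its part was not tested.

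Cxcr5, which brings B cells and follicular T cells toward Cxcl13, was near the limit of detection. It had 3, 6 and 0 counts with Dnmt3a(+/+) BM and 12, 19, 37 and 4 counts with Dnmt3a(+/-) BM, or 0.081, 0.094 and 0 CPM against 0.30, 0.39, 0.75 and 0.11 CPM. The groups did not overlap, and tumor 4 was barely above the other group. The log2 fold change was 2.60 (with SE 0.94 and adjusted p = 0.411 from edgeR), a fitted value that rests on 9 counts in the lower group. The gene passed the low-count filter through Dnmt3a(+/-) BM tumors 1 to 3, and fell below it when any 1 of them was left out. Its ligand Cxcl13 was at 1.24, 1.09 and 1.22 CPM against 0.72, 1.16, 2.28 and 2.24 CPM, and the groups overlapped (log2 fold change 0.44, SE 0.48). All 6 tested B cell markers had log2 fold changes above 0, with a median of 1.33. Without Dnmt3a(+/-) BM tumor 2 the median was 1.53, with Jchain at -0.84 and with Cd22 below the low-count filter. Of the 6, Cd22 was higher at an unadjusted p under 0.05, against 5.83% of all genes (log2 fold change 2.63, SE 0.86 from edgeR). Cd22 was at 0.13, 0.11 and 0.061 CPM against 0.52, 1.04, 0.93 and 0.081 CPM, and passed the filter through Dnmt3a(+/-) BM tumors 1 to 3. Cd79a was at 0.70, 0.062 and 0.12 CPM against 1.10, 1.26, 2.40 and 0 CPM. Fcrla was at 0.43, 0.031 and 0.18 CPM against 0.27, 0.39, 0.51 and 0.027 CPM. Both passed mainly through those tumors too. The filter favors signs above 0 in such genes, so no difference is read from the shared direction. The list summed to 9.41 to 199 CPM against 2.08 to 71.1, mostly through the plasma cell gene Jchain. Without Jchain the sums were 4.14, 3.55, 9.59 and 0.84 CPM against 2.20, 0.77 and 1.25, so Dnmt3a(+/-) BM tumors 1 to 3 were above the other group and tumor 3 was highest, as for Cxcr5. Cd79a, Pax5 and Cr2 were at 0 in some tumors. Their part was not tested.

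**Figure D2:**
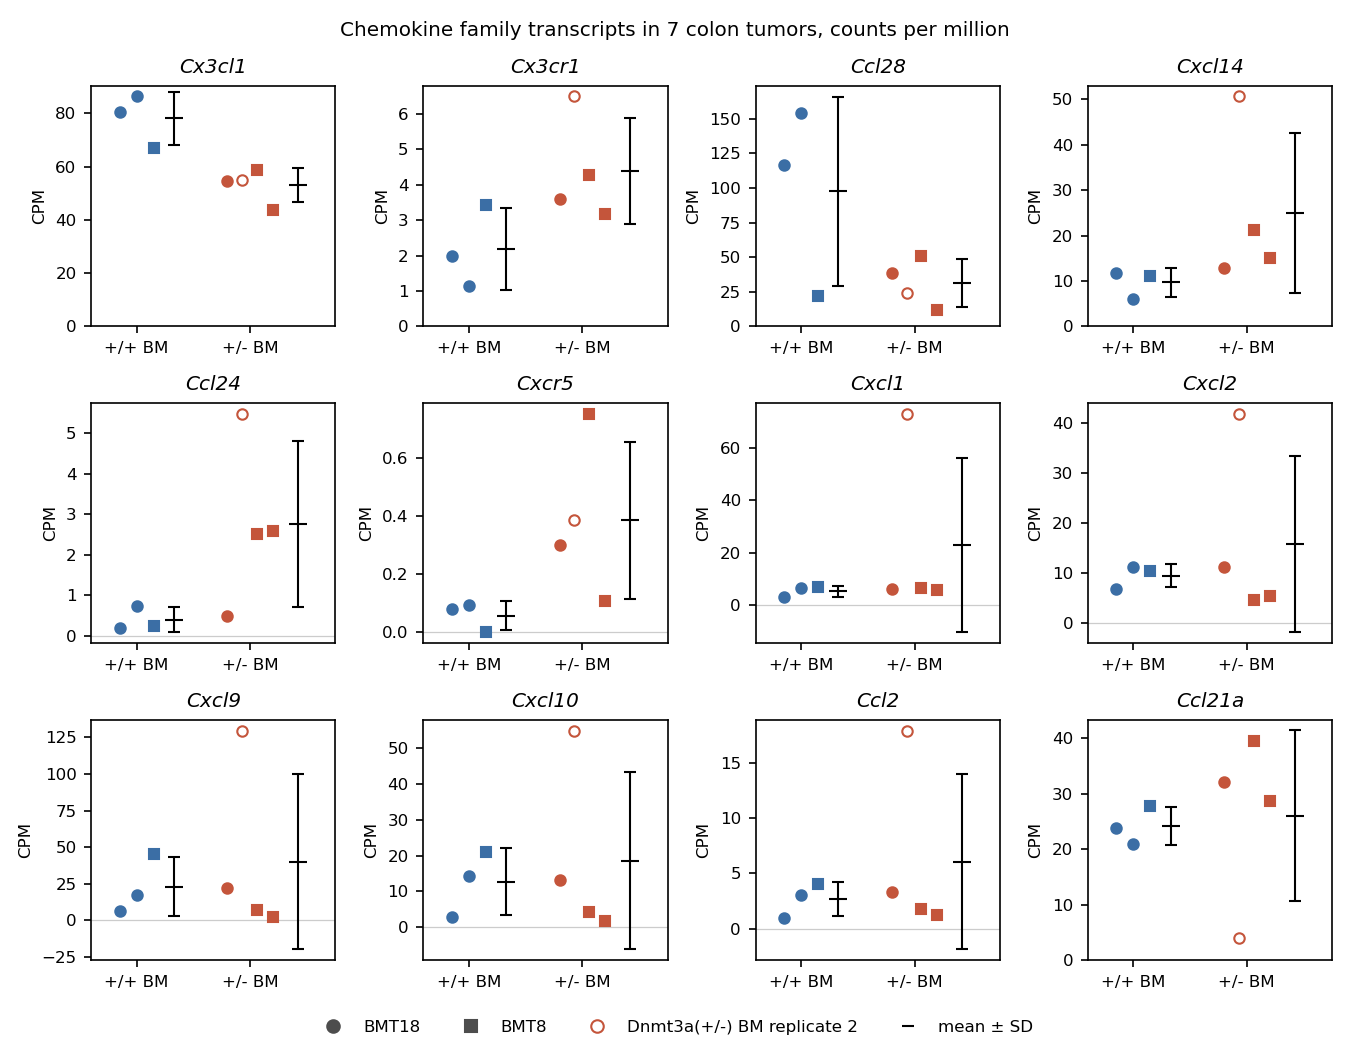
CPM of 12 members in each tumor, on a linear axis per gene, with the group mean and SD beside the points; circles are BMT18, squares BMT8, and the open circle is Dnmt3a(+/-) BM tumor 2. Cx3cl1 does not overlap between groups (43.8 to 58.6 against 67.2 to 86.6 CPM), while Cxcl1, Cxcl2, Cxcl9, Cxcl10 and Ccl2 are set apart by the open circle.

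Across the other members the widest contrast lay within the Dnmt3a(+/-) BM group. Counted after the values were seen, 23 of the 48 tested members (16 of 31 ligands, 7 of 17 receptors) had their highest level in Dnmt3a(+/-) BM tumor 2, where 24.7% of all tested genes did. For 17 of 48 members that tumor held over 50% of the summed CPM of its group, where 4.91% of all genes did. The median log2 fold change was 0.44 for ligands and 0.33 for receptors, beside 0.003 for all tested genes. Without that tumor the medians were -0.24 for ligands, -0.07 for receptors and 0.03 for all genes, so their sign rested on 1 tumor. edgeR then listed 5 of 47 members at an unadjusted p under 0.05 (7.16% of all genes), with Ccl24 and Ccl21a higher and Ccl6, Ccl8 and Cx3cl1 lower.

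**Figure D3:**
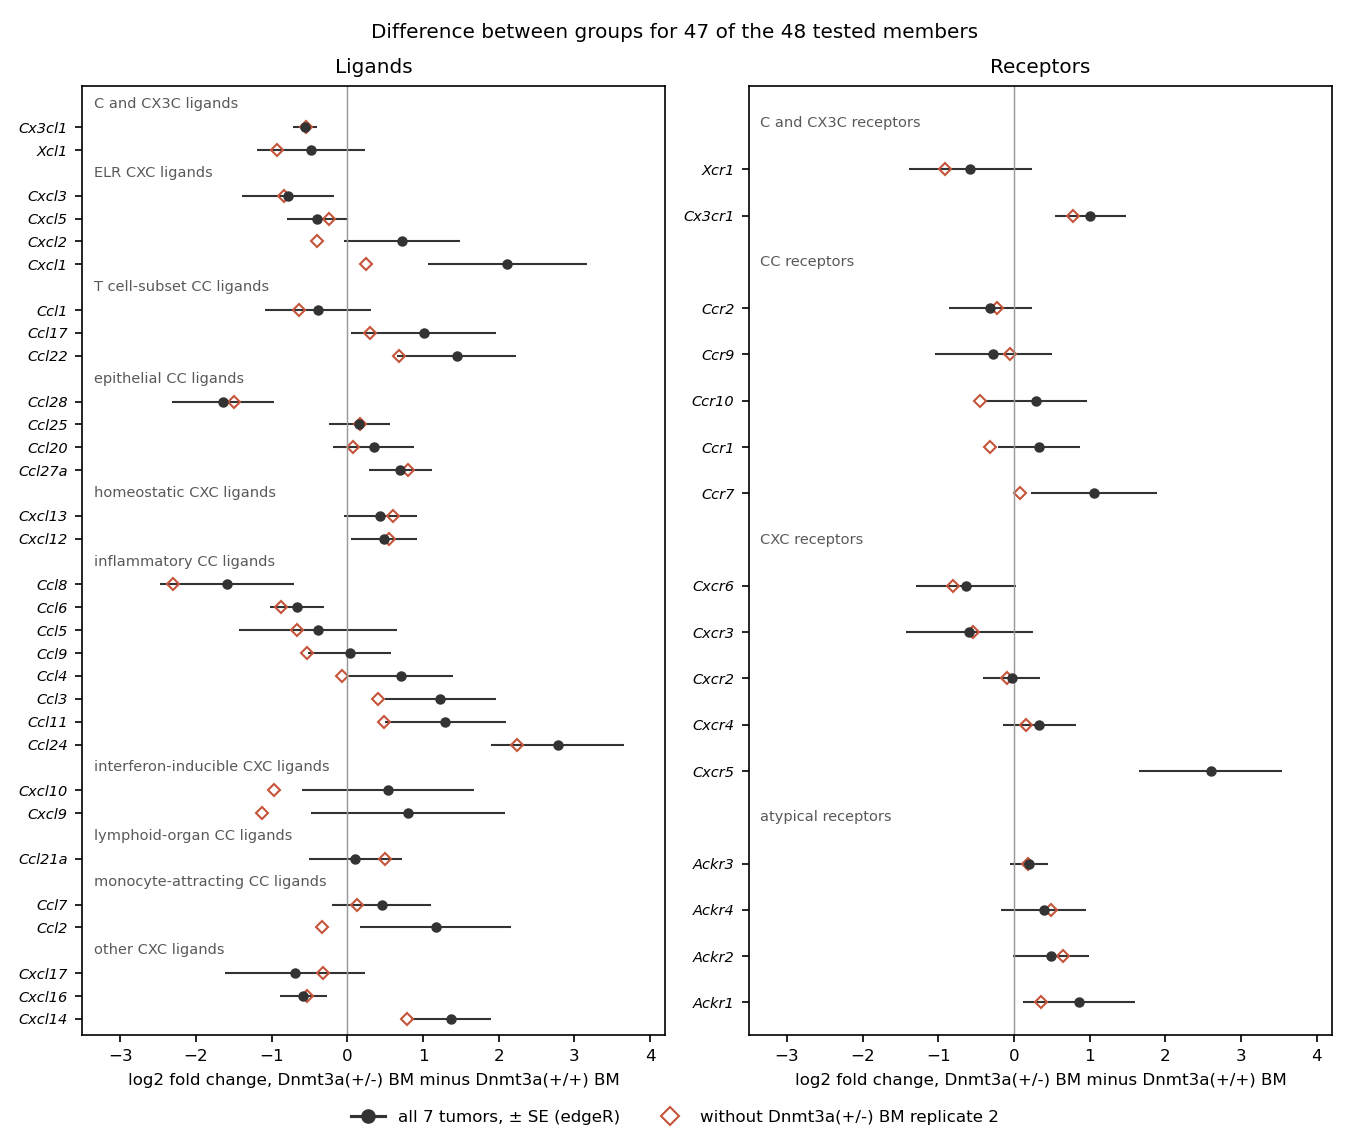
log2 fold change of 47 of the 48 tested members by role, Dnmt3a(+/-) BM minus Dnmt3a(+/+) BM; filled circles with bars are all 7 tumors ± standard error, and open diamonds leave out Dnmt3a(+/-) BM tumor 2. Cxcl1 moves from 2.11 to 0.25, Cxcl9 from 0.80 to -1.13, and Cx3cl1 hardly at all, from -0.56 to -0.55.

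**Figure D4:**
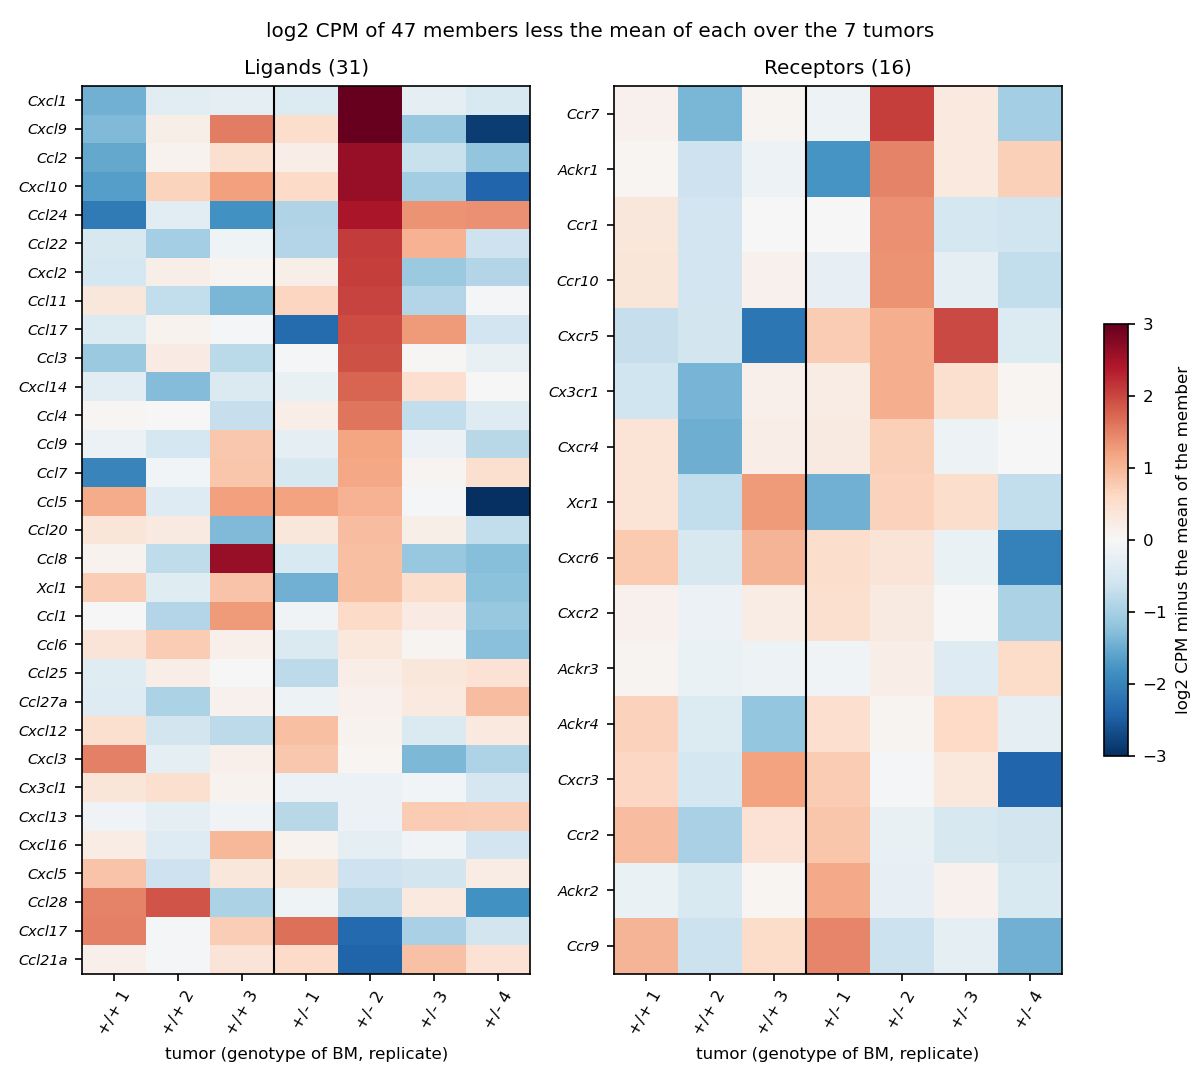
log2 CPM of 47 of the 48 tested members less the mean of each over the 7 tumors (31 ligands, 16 receptors; columns are tumors, and colors end at -3 and 3). Rows follow the value in Dnmt3a(+/-) BM tumor 2, the column with the highest level of 23 of the 48 members, and Ccl21a and Cxcl17 lie at its low end.

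Among the ELR ligands, Cxcl1 was at 2.90, 6.32 and 6.67 CPM with Dnmt3a(+/+) BM and at 6.04, 73.1, 6.66 and 5.84 CPM with Dnmt3a(+/-) BM. Cxcl2, named after its values were seen, was at 6.88, 11.3 and 10.5 CPM and at 11.3, 41.8, 4.61 and 5.43 CPM in the same order. In both, Dnmt3a(+/-) BM tumor 2 was high and the other 6 tumors overlapped. The log2 fold changes were 2.11 (SE 1.05) for Cxcl1 and 0.73 (SE 0.77) for Cxcl2, and without that tumor 0.25 and -0.40.

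Cxcl5, the abundant member of the same chromosome 5 group, did not follow them. It was at 558, 200 and 389 CPM with Dnmt3a(+/+) BM and at 394, 200, 208 and 357 CPM with Dnmt3a(+/-) BM, so the groups overlapped throughout (log2 fold change -0.40, SE 0.39), and Dnmt3a(+/-) BM tumor 2 was among the lowest. The receptor shared by these ligands, Cxcr2, was at 5.08, 4.14 and 5.48 CPM against 6.54, 5.58, 4.65 and 2.41 CPM, with a log2 fold change of -0.03 (SE 0.37). Neutrophil markers went both ways in the tumor with most Cxcl1. Of 8 tested, Csf3r, Mmp8, Mmp9 and Trem1 were highest there, with Mmp9 at 52.9 CPM against 2.59 to 11.7 in the others, and S100a8, S100a9 and Ly6g were lowest, with Ly6g at 64.3 CPM against 85.2 to 199. The 12 genes of the list summed to 196 CPM there, against 216 to 312, and without Ly6g to 132 CPM, within the 82.2 to 150 of the others. Elane, Mpo, Camp and Ngp were at 0 in some tumors, and the part of these cells was not tested.

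Cxcl9 and Cxcl10, both induced by interferon, showed the same tumor. Cxcl9 was at 6.23, 17.6 and 45.5 CPM with Dnmt3a(+/+) BM and at 22.3, 129, 7.09 and 2.14 CPM with Dnmt3a(+/-) BM. Cxcl10 was at 2.79, 14.3 and 21.1 CPM and at 13.3, 54.7, 4.31 and 1.68 CPM. Dnmt3a(+/-) BM tumors 3 and 4 were low, tumor 2 was high, and the groups overlapped for both. Their log2 fold changes of 0.80 (SE 1.28) and 0.54 (SE 1.14) became -1.13 and -0.97 without tumor 2, and with the experiment as a term they were -0.04 and -0.15. Their receptor Cxcr3, on activated T cells, was at 0.22 to 0.83 CPM with Dnmt3a(+/+) BM and at 0.027 to 0.60 CPM with Dnmt3a(+/-) BM, and was not highest in tumor 2.

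The starts of these 4 genes are shown because their levels were high together in 1 tumor. The sequences are up to 250 bases before the RefSeq start on GRCm38.p6, 5′ to 3′ on the strand of the gene and cut before the GENCODE gene: Cxcl1 (chr5:90890995-90891240, plus strand), Cxcl2 (chr5:90903649-90903870, plus strand), Cxcl9 (chr5:92328080-92328329, minus strand), Cxcl10 (chr5:92348890-92349139, minus strand). Capitals mark matches on either strand to the NF-κB consensus of 10 letters, to 2 copies of GAAA that are 2 bases apart (an interferon-response type of element) and to TGANTCA (an AP-1 type).
Cxcl1: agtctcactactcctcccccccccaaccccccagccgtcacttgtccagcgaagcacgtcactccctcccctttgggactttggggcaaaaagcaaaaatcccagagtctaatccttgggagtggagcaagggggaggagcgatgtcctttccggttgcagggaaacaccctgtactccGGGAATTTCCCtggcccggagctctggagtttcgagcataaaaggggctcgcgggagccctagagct
Cxcl2: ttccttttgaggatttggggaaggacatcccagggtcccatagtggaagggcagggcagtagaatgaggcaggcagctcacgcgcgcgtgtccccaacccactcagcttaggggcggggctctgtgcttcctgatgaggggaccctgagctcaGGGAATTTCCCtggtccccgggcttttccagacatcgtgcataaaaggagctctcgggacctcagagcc
Cxcl9: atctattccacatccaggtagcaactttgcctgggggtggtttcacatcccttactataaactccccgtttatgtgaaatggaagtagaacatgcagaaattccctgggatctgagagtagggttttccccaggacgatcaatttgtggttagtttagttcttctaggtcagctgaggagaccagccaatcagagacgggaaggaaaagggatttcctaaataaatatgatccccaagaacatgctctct
Cxcl10: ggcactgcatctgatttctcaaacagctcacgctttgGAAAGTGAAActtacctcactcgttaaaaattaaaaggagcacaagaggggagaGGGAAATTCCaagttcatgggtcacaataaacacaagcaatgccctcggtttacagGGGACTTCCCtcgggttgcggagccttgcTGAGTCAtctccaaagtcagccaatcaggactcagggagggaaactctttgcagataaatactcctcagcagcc
Cxcl1 and Cxcl2 each hold 1 capital run of the NF-κB consensus, read on both strands with 2 overlapping matches, which begins 71 bases before the start of Cxcl1 and 97 before that of Cxcl2. Cxcl10 holds 2 NF-κB matches, 159 and 103 bases before its start, 1 pair of GAAA copies at 213 and 1 TGANTCA match at 74, none overlapping another. Cxcl9 holds none of the 3 in this window. Among 32817 windows of 250 bases of all genes, 3.90% hold the NF-κB consensus, 2.97% the GAAA pair and 6.75% TGANTCA. RefSeq windows, 52 of them, matched 45 of the 59 members, and 9, 3 and 6 of those members held them in any window. The shares count windows and these count members, so the measures are unlike and no excess is read. A match is a description of letters and says nothing on binding in these tumors.

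Among the monocyte attractants, Ccl2 was at 0.97, 3.09 and 4.04 CPM with Dnmt3a(+/+) BM and at 3.32, 17.9, 1.81 and 1.24 CPM with Dnmt3a(+/-) BM. Dnmt3a(+/-) BM tumor 2 was again high and the others overlapped (log2 fold change 1.17, SE 1.00; -0.33 without it). Ccl7 was at 1.05, 4.04 and 7.59 CPM against 3.07, 9.56, 4.55 and 5.95 CPM, overlapping, with a log2 fold change of 0.45 (SE 0.66). Ccl12, the third ligand of Ccr2, had 2, 0 and 1 counts against 1, 60, 9 and 14 counts, too few for the filter of the test. Ccr2 itself was at 1.47 to 5.64 CPM with Dnmt3a(+/+) BM and 2.00 to 5.29 CPM with Dnmt3a(+/-) BM.

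Other myeloid CC ligands differed in direction among themselves. Ccl6 was at 87.5, 115 and 74.7 CPM with Dnmt3a(+/+) BM and at 49.5, 84.0, 70.8 and 28.0 CPM with Dnmt3a(+/-) BM, lower in 3 of 4 tumors than any of the other group (log2 fold change -0.67, SE 0.36). Without Dnmt3a(+/-) BM tumor 2 it was -0.87, with an unadjusted p of 0.0438 from edgeR. Ccl8 was at 3.71, 2.03 and 21.3 CPM against 2.50, 6.54, 1.54 and 1.41 CPM, and its log2 fold change of -1.59 (SE 0.89) leaned on the high Dnmt3a(+/+) BM tumor 3. Ccl3 and Ccl4, inflammatory ligands made by macrophages and T cells, had log2 fold changes of 1.23 and 0.71, and 0.40 and -0.06 without Dnmt3a(+/-) BM tumor 2. Ccr1, a receptor of Ccl3, was at 8.36, 4.39 and 6.64 CPM against 6.49, 17.0, 4.57 and 4.30 CPM, and the groups overlapped.

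Ccl22 and Ccl17 are made by dendritic cells and macrophages and attract regulatory and type 2 T cells through Ccr4. Ccl22 was at 1.10, 0.75 and 1.44 CPM with Dnmt3a(+/+) BM and at 0.82, 6.80, 3.27 and 1.00 CPM with Dnmt3a(+/-) BM. Ccl17 was at 0.40, 0.59 and 0.52 CPM and at 0.075, 2.26, 1.38 and 0.35 CPM. In both, Dnmt3a(+/-) BM tumors 2 and 3 were above all others and tumors 1 and 4 were not, and the log2 fold changes were 1.44 (SE 0.79) and 1.01 (SE 0.96), or 0.68 and 0.31 without Dnmt3a(+/-) BM tumor 2. The pair lies on either side of Cx3cl1, in 66.4 kilobases of chromosome 8 from 94745590 to 94812036, so 3 neighbors differed in both directions, with Cx3cl1 the only one without overlap.

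Ccl21a, which guides Ccr7-bearing dendritic and T cells, was at 23.8, 20.9 and 27.7 CPM with Dnmt3a(+/+) BM and at 32.0, 4.01, 39.4 and 28.7 CPM with Dnmt3a(+/-) BM. Here Dnmt3a(+/-) BM tumor 2 was the lowest of all 7, and the remaining 3 of its group were above every Dnmt3a(+/+) BM tumor. The log2 fold change was 0.11 (SE 0.62), and 0.49 without that tumor, with an unadjusted p of 0.043 from edgeR. Near-identical Ccl21 copies share reads, so this count is uncertain: Ccl21b had 0 counts, and the copy Gm21541 went from 2.18 CPM in the same tumor to 20.7 CPM. Ccr7 was highest where Ccl21a was lowest, at 4.01 CPM in Dnmt3a(+/-) BM tumor 2, against 0.33 to 1.02 CPM with Dnmt3a(+/+) BM and 0.43 to 1.14 CPM in the other Dnmt3a(+/-) BM tumors.

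Ccl20, which attracts Ccr6-bearing cells to epithelium, was at 4.30, 4.04 and 1.32 CPM with Dnmt3a(+/+) BM and at 4.27, 6.42, 3.76 and 1.97 CPM with Dnmt3a(+/-) BM, and the groups overlapped. Cxcl16, a membrane ligand of Cxcr6, was at 83.8, 54.8 and 142 CPM against 76.8, 59.1, 66.0 and 48.1 CPM, overlapping, with a log2 fold change of -0.58 (SE 0.32). Cxcl12, the stromal ligand of Cxcr4 and Ackr3, was at 8.73, 4.26 and 3.61 CPM against 11.8, 6.80, 4.61 and 7.68 CPM. These 3 ligands gave no separation of the groups. Cxcr4 was at 6.37, 1.70 and 5.44 CPM against 5.74, 7.90, 4.31 and 4.76 CPM (log2 fold change 0.34, SE 0.48). Ackr3 was at 18.6, 15.3 and 15.7 CPM against 16.4, 20.2, 13.4 and 25.8 CPM, and Ackr1, which carries chemokines across venules, at 0.64, 0.39 and 0.55 CPM against 0.15, 1.83, 0.77 and 1.05 CPM. All 4 atypical receptors had log2 fold changes above 0, from 0.19 to 0.85, except that the sign of Ackr3 turned with a replicate block, and 0 of 4 had an unadjusted p under 0.05.

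Ligands were then set beside their receptors. Of 40 pairs known to bind, 26 had both members tested, and 19 had a positive and 7 a negative Pearson r of log2 CPM over the 7 tumors, with a median of 0.43. Exact permutation tests over 5040 pairings gave a p under 0.05 for 3 pairs, and 2 passed Benjamini-Hochberg adjustment over the 26.

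Xcl1, made by natural killer and CD8 T cells, and Xcr1, the receptor of cross-presenting dendritic cells, had r = 0.940 (exact permutation p = 0.00198, adjusted p = 0.0258). Xcl1 was at 1.18, 0.53 and 1.29 CPM with Dnmt3a(+/+) BM and at 0.22, 1.32, 1.02 and 0.27 CPM with Dnmt3a(+/-) BM. Xcr1 was at 0.30, 0.11 and 0.58 CPM and at 0.050, 0.37, 0.32 and 0.11 CPM. Dnmt3a(+/+) BM tumor 2 and Dnmt3a(+/-) BM tumors 1 and 4 were low in both genes, and the groups overlapped. Xcr1 rested on 2 to 19 counts per tumor. Spearman's rho was 0.929 (exact permutation p = 0.00675, adjusted p = 0.0877), r without the 2 tumors farthest from the median of Xcl1 was 0.919, and r was 0.990 within BMT18 and 0.973 within BMT8. Batf3, a transcription factor of the dendritic cells that carry Xcr1, was at 0.48, 0.55 and 1.53 CPM and at 0.25, 0.81, 0.87 and 0.27 CPM, lowest and highest in the same tumors as Xcr1. Other genes of the dendritic cell list did not all follow. Clec9a was highest in Dnmt3a(+/-) BM tumor 2, at 0.57 CPM against 0.12 to 0.24 CPM in the others, and Flt3 in tumor 1, at 1.07 CPM. The list, 10 genes, summed to 57.8 CPM in Dnmt3a(+/-) BM tumor 1, where both members of the pair were lowest, of which 47.4 CPM was Fscn1. Without Fscn1 that tumor was at 10.4 CPM, within the 4.14 to 21.1 CPM of the others. Cd209a and Cd209d were at 0 in some tumors, and the part of these cells was not tested.

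Ccl25, the epithelial ligand of the small intestine, and Ccr9, the receptor that homes lymphocytes to the gut, went in opposite directions, with r = -0.925 (exact permutation p = 0.00119, adjusted p = 0.0258). Ccl25 was at 1.32, 1.95 and 1.68 CPM with Dnmt3a(+/+) BM and at 0.97, 1.96, 2.15 and 2.30 CPM with Dnmt3a(+/-) BM. Ccr9 was at 2.28, 0.69 and 1.65 CPM and at 3.12, 0.69, 0.89 and 0.38 CPM. Dnmt3a(+/-) BM tumor 1 was lowest in the ligand and highest in the receptor, tumor 4 the reverse, and the groups overlapped. Spearman's rho was -0.857 (exact permutation p = 0.0238, adjusted p = 0.206), r without the 2 farthest tumors was -0.854, and within BMT18 and BMT8 it was -0.979 and -0.918. For both pairs r kept its sign and a size over 0.85 under every alternative, while the adjusted p passed under none of those that left out a tumor (6 tumors), subtracted the group means or scaled by library size alone.

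The remaining pairs did not pass. Cxcl16 and Cxcr6 had r = 0.778 and rho = 0.964 (exact permutation p = 0.00278, adjusted p = 0.0722), with Dnmt3a(+/+) BM tumor 3 highest and Dnmt3a(+/-) BM tumor 4 lowest in both. Ccl9 and Ccr1 had r = 0.807 (exact permutation p = 0.0202, adjusted p = 0.175), and 0.533 without Dnmt3a(+/-) BM tumor 2. Cxcl1 and Cxcr2 had r = 0.215, and Cxcl9 and Cxcr3 had r = 0.549 (exact permutation p = 0.505 and 0.205, adjusted p = 0.656 and 0.462), and the tumor with most Cxcl1 and Cxcl9 had neither the highest nor the lowest level of their receptors. Points of a pair share a library and its scaling.

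**Figure D5:**
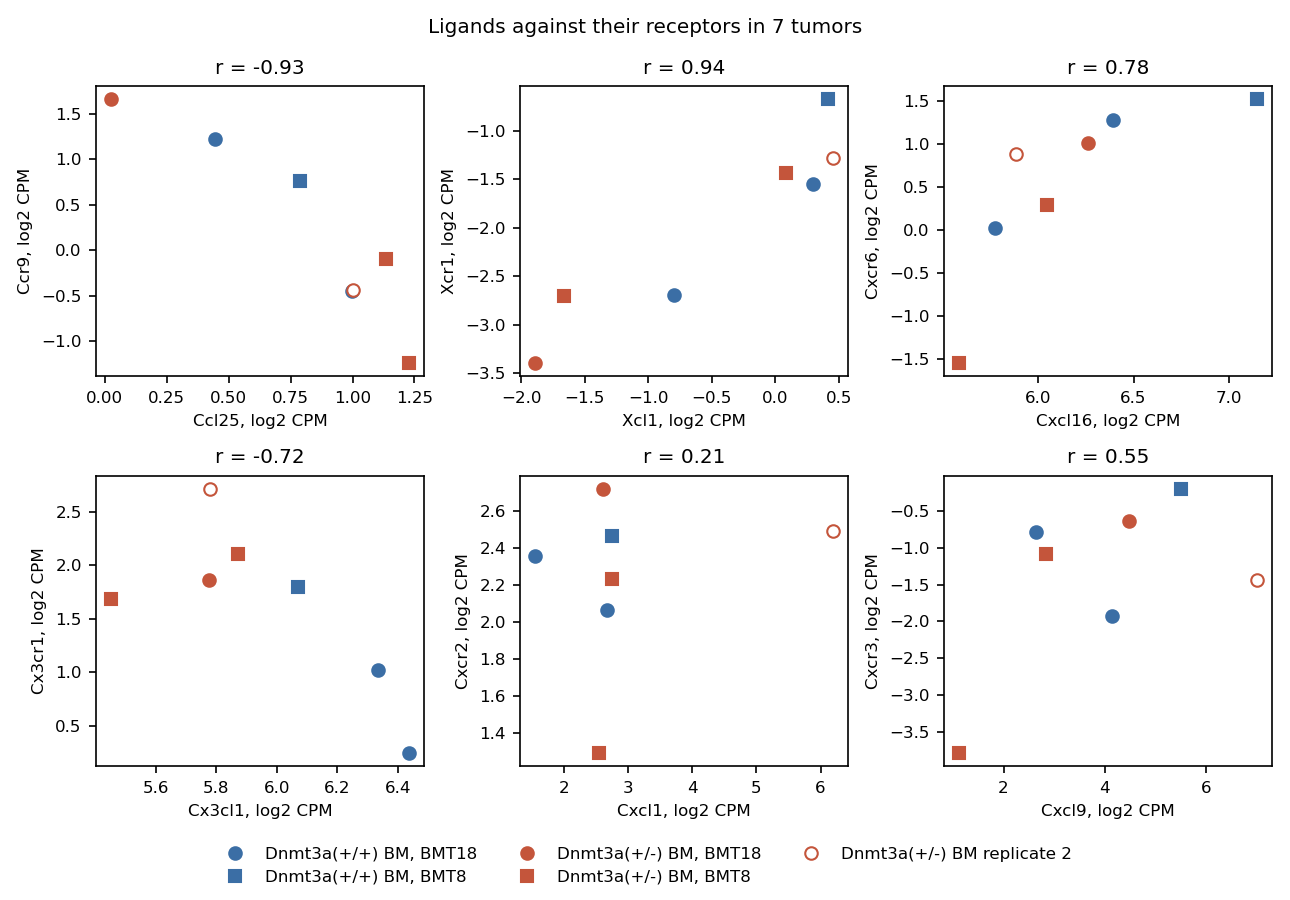
log2 CPM of 6 ligands (x axis) against a receptor of each (y axis), 1 symbol per tumor (blue, Dnmt3a(+/+) BM; red, Dnmt3a(+/-) BM; circles, BMT18; squares, BMT8; open circle, Dnmt3a(+/-) BM tumor 2), with Pearson's r over each panel. Ccl25 and Ccr9 fall along a descending line (r = -0.925), Xcl1 and Xcr1 along a rising one (r = 0.940), and Cxcl1 and Cxcr2 along none (r = 0.215).

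Of 40 genes that signal below chemokine receptors, chosen by hand, 39 were tested and 0 were called by edgeR. At an unadjusted p under 0.05 it listed 4 of the 39, near the 11% of all tested genes. Pik3cg, the PI3-kinase that G proteins activate in leukocytes, was higher (log2 fold change 0.96, SE 0.41). Lower were Plcb3, a phospholipase downstream of the receptors (-0.64, SE 0.25), Arrb1, which encodes an arrestin (-0.61, SE 0.22), and the Src-family kinase Lyn (-0.57, SE 0.23). The median of the list was 0.09, and -0.09 without Dnmt3a(+/-) BM tumor 2.

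Of 7 related genes that the name rule leaves out, 1 had an unadjusted p under 0.05 in edgeR, where 11% of all genes did: Gpr182, an atypical chemokine receptor of endothelium, at 3.41, 1.53 and 3.24 CPM against 2.77, 16.8, 6.87 and 9.49 CPM, with Dnmt3a(+/-) BM tumors 2 to 4 above the other group and tumor 1 within it. Its log2 fold change was 1.72 (SE 0.62, with adjusted p = 0.407), and 1.26 without tumor 2. Dnmt3a(+/-) BM tumors 2 to 4 are again those with the suffix in their sample names. Ppbp, an ELR ligand best known from platelets, covered the widest range of the 7, at 2224, 375 and 318 CPM with Dnmt3a(+/+) BM and 1394, 4.01, 316 and 101 CPM with Dnmt3a(+/-) BM. It was highest in tumor 1 of each group and lowest in Dnmt3a(+/-) BM tumor 2, while Pf4, another platelet chemokine, stayed between 2.02 and 6.64 CPM. Cxcl11, which the annotation lists as a polymorphic pseudogene, was at 0.14 to 0.86 CPM.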

How the data were processed

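Polyadenylated RNA of whole colon tumors was sequenced. The authors trimmed reads with Trimmomatic, aligned them with STAR to mm10 and deposited estimated counts per gene from RSEM, without normalization, and 100% of the values are whole numbers. RSEM divides reads between similar genes, which touches the Ccl21 copies. Symbols, biotypes, positions and exon lengths came from GENCODE M21 on GRCm38, promoter windows from RefSeq. The comparison used the quasi-likelihood test of edgeR 4.0.16 (R 4.3.3) after TMM and filterByExpr, with no covariate and with Benjamini-Hochberg adjustment over 15810 genes. Calls needed 2 thresholds, an adjusted p below 0.05 and a log2 fold change beyond 1 in size. CPM used TMM library sizes, and log2 CPM a prior count of 2. Single members and ligand-receptor pairs had exact permutation tests, two-sided (scipy 1.17.1). Alternatives were DESeq2 1.42.0, other scalings, no filter, the experiment or replicate number as a term, BMT18 alone and each tumor left out. The fits were tested on simulated data.

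Total counts were 38472738 to 64314999 per tumor, and genes without a symbol held 0.104% of them. Members, roles, pairs and gene lists were chosen with earlier results of these data known. A member and a B cell marker were kept in the fits and counts but are not reported here by name. Values in every tumor are given for members with an unadjusted edgeR p under 0.05 or a DESeq2 call, those without overlap, the 2 most abundant per length in each role, and pairs past adjustment.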

Additional observations from a re-analysis of the deposited data

Results flagged for a closer look

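Among 30 members examined in the Dnmt3a(+/-) BM group by Dixon's rule for outliers, 3 had a tumor that stood far from the other 3. In each it was tumor 2 with the highest level: Ccl2 at 17.9 CPM, Cxcl1 at 73.1 CPM and Cxcl9 at 129 CPM. The rule would flag about 1.5 of 30 if values were independent and normally distributed, which cannot be assumed here, so no excess is read from the count. The values come from 1 tumor and are not independent, and the same tumor had the highest leukocyte, fibroblast, endothelial and macrophage lists. Their part in these levels was not tested.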

How the results depend on the processing

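Among members, 0 were called under edgeR and its alternatives, and 1, Ccl24, under DESeq2 (log2 fold change 2.79). DESeq2 with each tumor left out, chosen after seeing the data, called 0 to 4. Of these fits the share of all genes is given only without Dnmt3a(+/-) BM tumor 2 (0.987%). The count higher at an unadjusted p under 0.05, 3 (all genes, 922 of 15810), became 6 of 56 under DESeq2 (1335 of 24352). It was 5 with library size alone (all genes, 1687) and 1 to 5 with a tumor left out (443 to 1201). The count lower, 2 (all genes, 822), became 0 with library size alone (288) and 1 with the experiment as a term (1157). With a tumor left out it was 1 to 3 (all genes, 440 to 1010). With a tumor left out, the ligand median (0.44) went from -0.24 to 0.50 and the receptor median (0.33) from -0.07 to 0.54, and BMT18 alone gave 0.90 for receptors. The 2 pairs past adjustment became 0 with library size alone, with group means subtracted and with any tumor left out (0 to 0).

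Replicate numbers gave no pairing that held for every number. Deviations of same-numbered tumors correlated at 0.568, 0.071 and -0.038, against -0.466 to 0.489 for tumors with different numbers. The tumors numbered 1 were thus the most alike. With a replicate block the count of lower members was 1 in place of 2 (all genes, 1071 in place of 822) and Ccl21a was at -0.41.

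Signs turned for Ccl21a (-0.075 with the experiment as a term, -0.31 in BMT18 alone, -0.16 to 0.49 with a tumor left out), Cxcl9 (-0.040 with the experiment as a term, -1.13 to 1.77) and Cxcl10 (-0.15, and -0.97 to 1.12). They also turned for Ccl2 (-0.33 to 1.59) and Cxcl2 (-0.40 to 1.04) with a tumor left out, the low end of each without Dnmt3a(+/-) BM tumor 2. The cause was not tested. At this depth Cxcr5 had 0 to 37 counts per tumor and Xcr1 2 to 19. Sums of marker lists without the most abundant gene of each were chosen after seeing the data.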

Other observations

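Counted after the values were seen, 16 of the 48 tested members were lowest in Dnmt3a(+/-) BM tumor 4, where 13.6% of all tested genes were. Among them were Ccl5 and Cxcr3, a ligand and a receptor of activated T cells, each at 0.027 CPM, or 1 count. Ccl5 was at 0.95 to 2.97 CPM in the other 6 tumors and Cxcr3 at 0.22 to 0.83 CPM. Cxcl9, Cxcl10, Cxcl16 and Cxcr6 were lowest there too. Of 12 T cell markers, 8 were lowest in that tumor, among them Cd3e at 0.11 CPM against 0.64 to 1.83 in the others and Cd8a at 0 against 1.34 to 3.06. Zap70 went the other way, at 7.22 CPM there against 1.28 to 2.74 CPM with Dnmt3a(+/+) BM (log2 fold change 1.65, unadjusted p = 0.0105, adjusted p = 0.377 from edgeR). It was the 1 marker of the 12 with an unadjusted p under 0.05 in edgeR, where 11% of all genes had one. The list summed to 16.4 CPM there, of which 7.22 CPM was Zap70, against 13.3 to 39.4 CPM over all tumors, with Cd8b1 also at 0 in that tumor. Its part was not tested.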
